A study of Homo sapiens with 4 samples.

Results

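Long regular nucleosome arrays were examined, that is stretches of chromatin in which nucleosomes follow each other at a near-constant distance. In each library a run was defined as 10 or more consecutive called nucleosomes on the 22 autosomes whose neighbouring dyads (nucleosome centres) were all 160 to 210 bp apart. A run was kept as a member when it overlapped such a run in all other 3 libraries. Members were 15 of 2373 runs in ctrl replicate 1, 11 of 4308 in ctrl replicate 2, 13 of 2271 in N-myc kd replicate 1 and 13 of 4576 in N-myc kd replicate 2. After overlapping members were merged, they covered 8 loci of 80.2 kb in all, of which 6 lay on chromosome 12, 1 on chromosome 7 and 1 on chromosome 17. Each of the 8 loci held a member run in all 4 libraries. The runs were chosen by their dyad distances, their number of nucleosomes and their overlap between libraries, so these values are described without a test.

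Nucleosomes were mapped by MNase-seq, in which micrococcal nuclease digests the DNA between nucleosomes and the protected fragments are sequenced. The cells were BE(2)C (BE2C in the labels), a MYCN-amplified neuroblastoma cell line of human origin. Both groups, ctrl (2 libraries) and N-myc kd (2 libraries), received siRNA with Lipofectamine, at 80 nM according to the labels (the study's methods state a lower final concentration), and were taken on the following day. The study's methods call the replicates biological, but nothing states separate cultures, so p-values here measure the spread between these 4 libraries of 1 cell line. The deposited lists held 147370973 to 242544884 reads in called nucleosomes, and replicate 2 was deeper than replicate 1 in both groups. These data hold no transcripts, so neither the line's marker genes nor the knockdown could be checked in them.

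A nucleosome wraps DNA around a histone octamer, and linker DNA joins it to the next one. Most positions in a human cell population differ from cell to cell, so that regular arrays show in averaged maps mainly beside fixed points such as promoters and bound CTCF, where remodelling enzymes space nucleosomes against a barrier. DNA sequence can also place nucleosomes, since G+C-rich DNA tends to be wrapped more readily than A+T-rich DNA.

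The 8 loci fell into 3 kinds by sequence. The 6 chromosome 12 loci held a G+C-rich tandem repeat, the chromosome 7 locus a tandem repeat inside the gene MUC17, and the chromosome 17 locus no tandem repeat. Neighbouring repeat units are shown first, so that their length can be set beside the spacing of the nucleosomes. Both pairs were read at the midpoint of a locus from the plus strand of GRCh37 (hg19), 5′ to 3′, and capitals mark bases identical to the base at the same place in the other unit. The chromosome 12 units lay at chr12:34519107-34519294 and chr12:34519295-34519482, in the longest locus, and had 80 of 188 bases in common (42.6%).
chromosome 12 unit 1: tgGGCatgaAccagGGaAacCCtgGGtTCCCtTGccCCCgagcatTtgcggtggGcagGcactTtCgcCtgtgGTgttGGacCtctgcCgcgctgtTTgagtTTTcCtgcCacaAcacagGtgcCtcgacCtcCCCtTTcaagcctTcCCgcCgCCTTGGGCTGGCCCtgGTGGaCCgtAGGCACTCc
chromosome 12 unit 2: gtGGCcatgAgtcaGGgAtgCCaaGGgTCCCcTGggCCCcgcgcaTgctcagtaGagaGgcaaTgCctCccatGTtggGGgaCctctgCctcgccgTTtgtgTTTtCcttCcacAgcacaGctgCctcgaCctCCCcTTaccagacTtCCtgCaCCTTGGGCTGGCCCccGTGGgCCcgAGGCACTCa
The MUC17 units lay at chr7:100683491-100683667 and chr7:100683668-100683844 and had 158 of 177 bases in common (89.3%).
MUC17 unit 1: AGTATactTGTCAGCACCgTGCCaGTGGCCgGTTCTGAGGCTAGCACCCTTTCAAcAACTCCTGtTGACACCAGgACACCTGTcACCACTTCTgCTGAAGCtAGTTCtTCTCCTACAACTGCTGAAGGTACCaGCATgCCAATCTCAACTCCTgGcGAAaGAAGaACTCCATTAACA
MUC17 unit 2: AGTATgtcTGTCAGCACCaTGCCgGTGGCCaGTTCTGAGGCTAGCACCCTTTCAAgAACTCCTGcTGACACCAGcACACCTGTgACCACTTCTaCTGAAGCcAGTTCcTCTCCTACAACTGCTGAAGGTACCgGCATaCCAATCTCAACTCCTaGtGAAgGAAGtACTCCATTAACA
The chromosome 17 locus is represented by 300 bases around its middle linker, chr17:32869551-32869850 on the plus strand, in which capitals mark the 30 bases between the footprints of 2 neighbouring nucleosomes of ctrl replicate 2.
chromosome 17 linker: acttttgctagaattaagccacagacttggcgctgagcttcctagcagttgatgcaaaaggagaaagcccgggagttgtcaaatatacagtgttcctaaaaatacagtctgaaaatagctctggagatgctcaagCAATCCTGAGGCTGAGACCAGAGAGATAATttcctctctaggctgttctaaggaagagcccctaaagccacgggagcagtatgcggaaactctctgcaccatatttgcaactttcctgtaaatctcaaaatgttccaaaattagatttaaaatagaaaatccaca
Compared base by base without gaps, the chromosome 12 units differed at most positions. The longest unbroken stretch of capitals stood near their 3′ ends. An inserted or missing base puts the bases after it out of step, so the 42.6% can understate how alike the units are. Stretches that match out of step are printed mostly in lower case.

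To measure the repeats over whole loci, each locus was compared with itself after a shift. The longest chromosome 12 locus, chr12:34507786-34530428, matched itself best at a shift of 188 bp, where 44.04% of bases were identical. Across the 6 chromosome 12 loci the best shift between 160 and 210 bp was 187 to 189 bp with an identity of 40.3 to 44.04%, and the median identity over shifts from 100 to 450 bp was 26.1 to 27.4%. For MUC17 the best shift was 177 bp with an identity of 83.1%. No gaps were allowed, so units of varying length lower the identity at a single shift, as base changes do. The lower identity on chromosome 12 therefore does not show by itself that its units differ by more base changes than those of MUC17. In the chromosome 17 locus no shift stood out, since the best shift of 194 bp reached 28.0%. Of 958501 autosomal windows of 2800 bp, the median window reached 28.7% at its best shift. The central 2800 bp of the chromosome 12 loci reached a level that 0.282 to 0.520% of these windows also reached. For the MUC17 window this share was 0.00365%, or 35 windows, and for the chromosome 17 window it was 80.5%. Repeats of nucleosome length were thus present in 7 of the 8 loci.

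**Figure D1:**
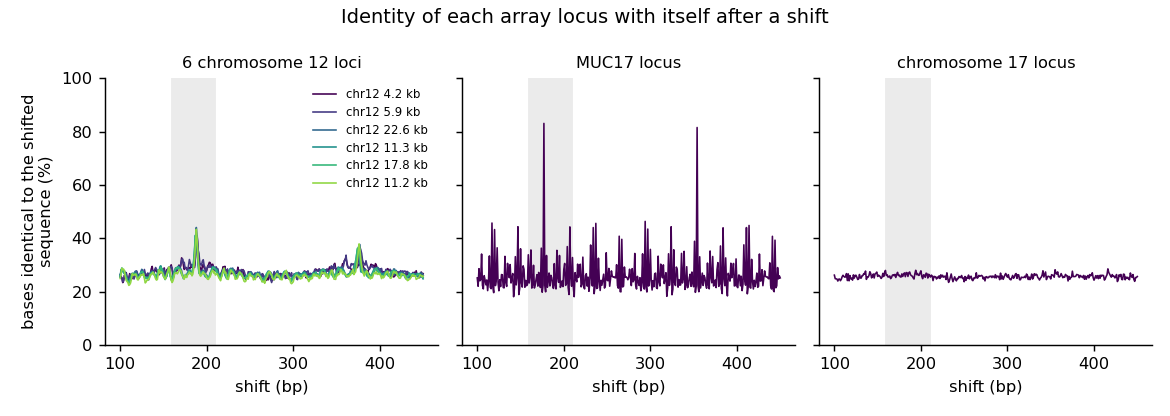
Percentage of bases (vertical axis) of each array locus that were identical to the base a given number of bp further on (horizontal axis, shifts of 100 to 450 bp); the grey band marks 160 to 210 bp. The chromosome 12 loci peak at 187 to 189 bp, the MUC17 locus reaches 83.1% at 177 bp and peaks again further out, and the chromosome 17 locus has no peak.

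The number of nucleosomes is given beside the number of repeat units. Both the dyad distances and the repeat lengths were sought between 160 and 210 bp, so a ratio near 1 is largely fixed by these limits and is a description. The longest locus spanned 22.64 kb, equal to 120.4 units of 188 bp, and held 121, 121, 120 and 120 called nucleosomes in ctrl replicates 1 and 2 and N-myc kd replicates 1 and 2. The chr12:34542113-34559937 locus had 95.3 units and 93 to 95 nucleosomes. The chr12:34530661-34541958 locus had 60.4 units and 61 nucleosomes in every library, and the chr12:34750021-34761255 locus had 59.8 units and 59 to 60 nucleosomes. The same held for the shorter chr12:34487470-34491687 locus, with 22.3 units and 22 to 23 nucleosomes, and for chr12:34498296-34504200, with 31.2 units and 31 to 32 nucleosomes. In MUC17 the 4.24 kb locus had 23.97 units and 21 to 23 nucleosomes. The chromosome 17 locus, with no repeat, spanned 14.7 lengths of its best shift of 194 bp and held 14 to 16 nucleosomes.

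In ctrl replicate 2 the longest locus was a single run of 121 nucleosomes, the longest run of any library. In ctrl replicate 1 it was split into runs of 56, 50 and 11 nucleosomes, in N-myc kd replicate 1 into runs of 58 and 56, and in N-myc kd replicate 2 into runs of 62 and 55. The splits came from few distances, since 95.8 to 100% of the dyad distances at this locus lay inside 160 to 210 bp, against 36.6 to 41.0% of all autosomal distances. In N-myc kd replicate 1 the split was at a distance of 326 bp. Runs of all 4 libraries together covered 89.7% of this locus. The other chromosome 12 loci were covered to 42.6 to 90.6%, MUC17 to 37.2% and the chromosome 17 locus to 63.8%. Over all members, the 104 run ends were set by a distance under 160 bp at 32 ends, of 211 to 250 bp at 31 and over 250 bp at 41.

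**Figure D2:**
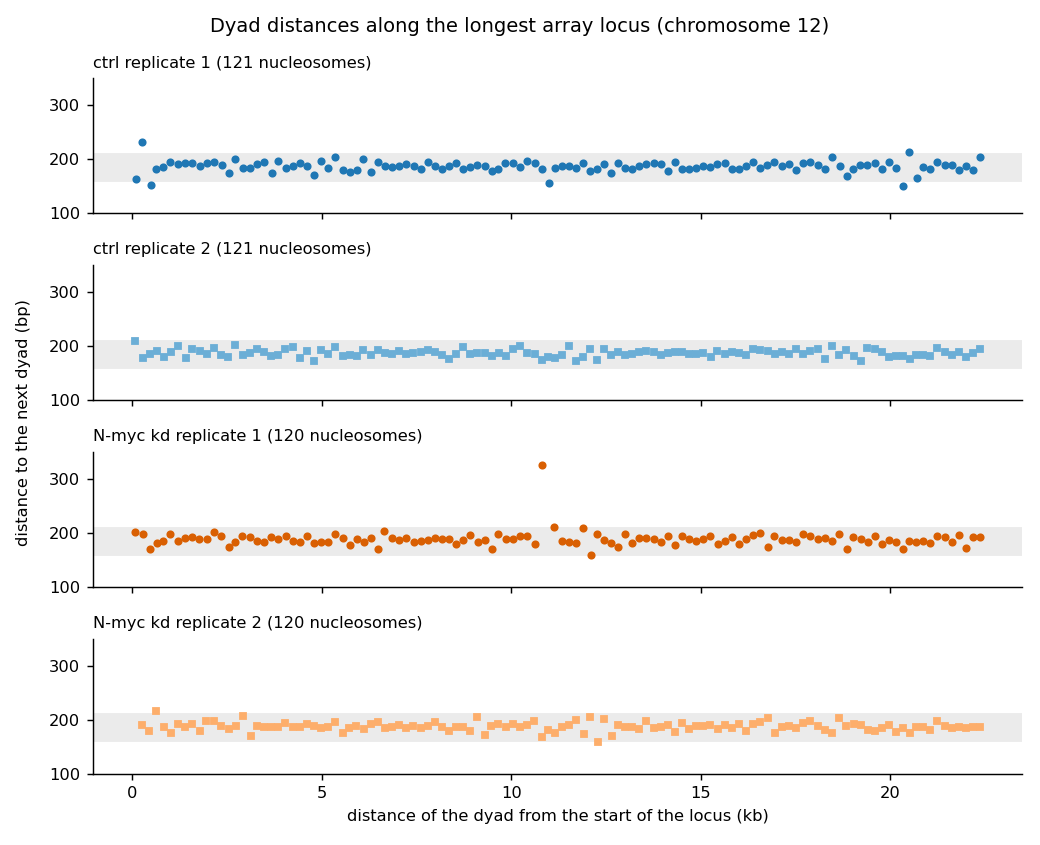
Distance from each dyad to the next (vertical axis, bp) along the longest array locus (horizontal axis, kb from its start), with 1 panel per library and 1 point per nucleosome; the grey band marks 160 to 210 bp. Between 95.8 and 100% of the points lie inside the band, and the library labelled N-myc kd replicate 1 has a single distance of 326 bp.

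Mean spacing was shorter in MUC17 than at the other 7 loci. In the longest run of each locus it was 187.4 to 188.2 bp at the longest chromosome 12 locus and 182.6 to 188.2 bp over all 6 chromosome 12 loci. In MUC17 it was 177.8 to 178.4 bp, and on chromosome 17 it was 183.2 to 185.4 bp. The spacing at MUC17 thus stood below that at every chromosome 12 locus in all 4 libraries, in the order of their repeat lengths of 177 and 187 to 189 bp. Averaged over both groups, spacing exceeded the repeat length by 1.13 bp in MUC17 and by -4.98 to -0.0545 bp on chromosome 12, where it was shorter than the repeat at all 6 loci. The deviation was under 1 bp at the 4 longest.

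Averaged over the 8 loci, spacing was 185.1 bp in ctrl replicate 1, 185.2 bp in ctrl replicate 2, 185.7 bp in N-myc kd replicate 1 and 184.9 bp in N-myc kd replicate 2. The groups overlapped, with the N-myc kd libraries highest and lowest. The difference, N-myc kd minus ctrl, was 0.137 bp, and it was 0.602 bp between the replicate 1 libraries and -0.329 bp between the replicate 2 libraries. At single loci the difference ranged from -0.439 to 0.689 bp. The mean spacing of members in each library (185.5 to 186.0 bp) lay near that of the other runs (185.4 to 185.9 bp), which is set by the same limits of 160 and 210 bp.

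Other runs were short beside the members. Of all runs, 53.0 to 55.2% had exactly 10 nucleosomes, and the longest that was not a member had 24 nucleosomes, whereas members reached 56, 121, 58 and 62 nucleosomes in the 4 libraries. Just outside the rule stood 32 loci with runs in 3 of the 4 libraries. Their longest run had 20 nucleosomes, their spacing was 180.0 to 192.0 bp, and 3 of them lay on chromosome 12, including chr12:34483673-34486965, just before the first of the chromosome 12 loci. The run was missing in ctrl replicate 1 at 11 of these loci, in ctrl replicate 2 at 6, in N-myc kd replicate 1 at 9 and in N-myc kd replicate 2 at 6. The number of loci rested on the limits of the rule, with 54 loci for runs of at least 8 nucleosomes, 142 for distances of 150 to 220 bp and 14 to 19 when any 1 library was left out. Just inside the rule, the chromosome 17 locus had runs of 12 to 13 nucleosomes.

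Most runs of a library did not recur. A run overlapped a run of a given other library in 2.23 to 4.80% of cases, and in 0.677 to 1.81% after the other list had been displaced by 5 kb. When the other 3 lists were displaced by 5 kb, 12, 9, 11 and 10 runs still overlapped all of them, against 15, 11, 13 and 13 in place. All of these displaced overlaps lay on chromosome 12, where the arrays are longer than 5 kb or follow each other. Outside chromosome 12 the count was 2 in place and 0 displaced in every library. With a displacement of 100 kb, chosen after seeing the data, the counts were 1, 0, 0 and 0, and with 1000 kb none was left in any library.

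The chromosome 12 loci formed 2 blocks. The first 5 lay within chr12:34487470-34559937 (72.5 kb), where 92.1 to 95% of dyad distances were inside 160 to 210 bp and 78.7 to 90.6% of the 381 to 382 nucleosomes belonged to a run. The sixth lay 190.1 kb further on. The DNA between the blocks, chr12:34559938-34750020, was also repeated, but with a best shift of 172 bp (identity 44.1%), near the unit of alpha satellite, the tandem repeat of human centromeres, and with a G+C content of 37.2%. In that stretch 42.2 to 49.0% of distances were inside the limits, and it held 0 runs of 10 or more in each library. Its mean fuzziness was 35.2 to 36.5 bp, against 24.4 to 27.0 bp in the first block. A tandem repeat with a period between 160 and 210 bp was thus found on chromosome 12 both with and without runs. How much of the sequence between the blocks is unique in the reference was not measured. The part of misplaced or lost reads in its fuzziness and its lack of runs was not tested.

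By annotation, 7 of the 8 loci were intergenic and 1 was exonic. Of the 7, 6 were the chromosome 12 loci, which hold the same kind of repeat and are not independent of each other. Among other runs 36.0 to 38.4% had an intergenic midpoint and 52.8 to 54.3% an intronic one, and among all autosomal nucleosomes 36.1 to 36.3% and 56.3 to 56.4%. None of the 8 midpoints lay in a promoter (2 kb upstream to 1 kb downstream of a protein-coding start site). The share of other runs there was 2.42 to 2.80%, so 0 of 8 is near that share and shows no difference. The chr7:100681371-100685612 locus lay inside exon 3 (chr7:100674882-100687100) of MUC17 (chr7:100663353-100702140, plus strand), a membrane-bound mucin whose extracellular part is built of repeats. Its unit of 177 bp equals 59 codons. The chromosome 12 loci overlapped no annotated gene. The nearest protein-coding gene, 306.9 to 573.0 kb from their midpoints, was ALG10, a glucosyltransferase of N-glycan assembly, and the nearest gene of any type was the pseudogene AK6P1, 84.6 kb from the first locus. The chr17:32868284-32871144 locus lay 36.8 kb from TMEM132E, which encodes a transmembrane protein. Of 30 genes of nucleosome remodelling, cohesin, CTCF and MYCN, 27 are autosomal and 0 of these overlapped an array locus. Since MUC17 was the only annotated gene that overlapped a locus, this 0 says little about the listed genes. Runs of any kind were found in 5 of them, BAZ2A, CECR2, CHD2, CHD4 and SMARCA2, each in 1 library only. The share of all genes with a run was not computed, so these counts are a description.

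Base composition set the chromosome 12 loci apart from most of the genome. Their G+C content was 56.9 to 64.9%, and 0.314 to 2.69% of autosomal windows had a G+C content as high as their central windows. MUC17 (49.1%) and the chromosome 17 locus (45.2%) were lower, and the median autosomal window had 39.9%. The median G+C content of member runs was 60.6 to 60.9% in the 4 libraries and that of other runs 43.5 to 47.4%, a mean difference of 15.3 percentage points. The members are the same loci in every library and G+C content was read from the reference, so the libraries are not replicates of this value and no test is given. Without the chromosome 12 members, a selection made after seeing the data, the difference was 1.39 percentage points.

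The G+C content also changed along the nucleosome. In the chromosome 12 loci the DNA within 40 bp of called dyads had a G+C content of 61.4 to 70.9%, and the 20 bases that start 84 bp to either side of a dyad, in the linker, had 44.7 to 49.9%. At the longest locus core exceeded linker by 19.4 to 19.9 percentage points in the 4 libraries, and the range over all 6 loci was 15.7 to 25.3. For all autosomal nucleosomes the same difference was 5.09 to 6.67 percentage points. It was 7.22 to 8.62 in MUC17 and -1.21 to 3.63 on chromosome 17, where 14 to 16 nucleosomes gave the value. The 4 libraries were close to each other at the chromosome 12 loci, and no test was made of these differences.

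**Figure D3:**
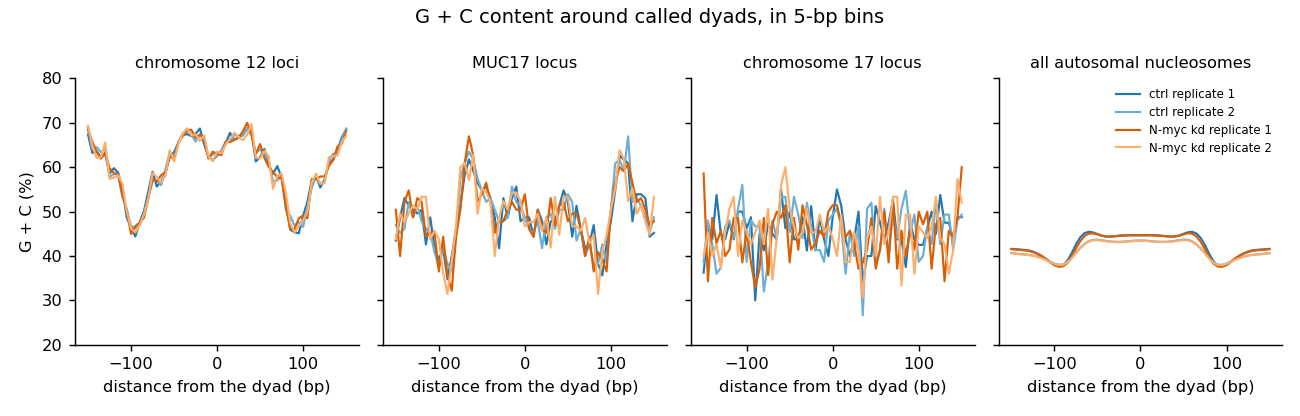
G+C content (vertical axis, %, in 5-bp bins) against distance from the called dyad (horizontal axis, bp) in the 6 chromosome 12 loci, the MUC17 locus, the chromosome 17 locus and all autosomal nucleosomes, with 1 line per library. The chromosome 12 profile falls from core to linker by 15.7 to 25.3 percentage points depending on the locus, against 5.09 to 6.67 over all nucleosomes, and the chromosome 17 profile has no shared shape.

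Motif matches were counted for 2 factors of interest. A CTCF core motif (searched on both strands) had 0 matches in the 8 loci and 0 within 300 bp of their ends. The motif was rare elsewhere too, since 1.07% of autosomal 2800-bp windows held one. In 8 loci, 0 matches are near that share and do not set the arrays apart. The E-box CACGTG, a palindrome to which MYC proteins bind, occurred 16 times in 6 of the 8 loci, all on chromosome 12. Among the central 2800-bp windows 5 of 8 held it, against 22.4% of all autosomal windows. These 5 windows, all on chromosome 12, had a G+C content of 56.7 to 64.5%, and the median autosomal window had 39.9%. The chromosome 12 loci hold the same kind of repeat and are not independent of each other. No share was computed for windows of like G+C content, so the 2 shares do not show an excess of E-boxes in arrays. No binding was measured here.

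Because reads from repeats can be misplaced, the uniqueness of the loci was examined. On chromosome 12, 95.2 to 98.8% of the 31-base words of each locus occurred once in the reference, and on chromosome 17 all of them did. In MUC17 the share was 68.3%, with up to 17 copies of a word, so its nucleosomes are the least certain of the 8 loci. The copies of the chromosome 12 repeat were thus largely distinguishable at this word length. Whether misplaced reads contributed to any array was not tested.

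The dyads themselves were compared between libraries as the distance from a dyad to the nearest dyad of another library. At the longest locus this distance was 5.97 bp on average over the 6 pairs of libraries (range 5.15 to 6.96 bp), and 82.2 to 86.8% of dyads were within 10 bp. Averaged over the chromosome 12 loci it was 6.23 to 7.86 bp in the 6 pairs. It was larger in MUC17 (20.6 bp) and on chromosome 17 (18.9 bp), although the median there was 5.5 to 8 bp and 6 to 14 bp. Averaged over the 8 loci it was 9.53 to 11.8 bp, against 53.0 to 54.8 bp when 1 library was displaced by 5 kb. The share of dyads within 10 bp was 75.3 to 79.1% in the array loci, 30.4 to 34.7% in other runs and 21.5 to 23.8% over all autosomal nucleosomes. Members were chosen for overlap of runs, which limits how far their dyads can differ, so these shares are a description.

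**Figure D4:**
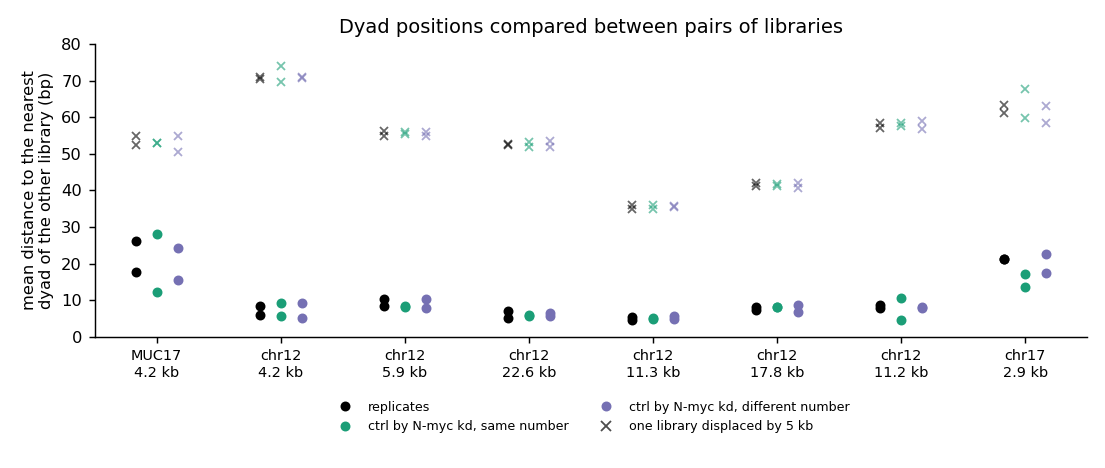
Mean distance (vertical axis, bp) from a dyad to the nearest dyad of another library at each array locus (horizontal axis); each filled point is 1 of the 6 pairs of libraries, coloured by kind of pair, and crosses give the same with 1 library displaced by 5 kb. All filled points of the chromosome 12 loci lie between 4.48 and 10.7 bp, and those of MUC17 and chromosome 17 between 12.1 and 28.0 bp.

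With the lists as deposited, the distance was no larger between ctrl and N-myc kd than between replicates, but the sign turned at equal depth. Both replicate pairs set a shallower library against a deeper one, whereas same-numbered ctrl-by-N-myc kd pairs are alike in depth. The comparison thus mixes group with depth, and no conclusion is drawn from it. The mean over the 4 ctrl-by-N-myc kd pairs minus that over the 2 replicate pairs was -0.741 bp (one-sided exact permutation p = 1, smallest possible 0.333), and 0.234 bp when the libraries were thinned to equal depth. At the longest locus the means were 6.06 bp for replicates, 5.70 bp for same-numbered and 6.17 bp for different-numbered ctrl-by-N-myc kd pairs. In MUC17 the mean place of the called dyads was 83.3, 81.9, 80.3 and 86.8 bp into the 177-bp unit, counted from the start of the locus, in ctrl replicates 1 and 2 and N-myc kd replicates 1 and 2. A shared place within the unit follows in part from the choice of overlapping regular runs, so it is a description.

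Fuzziness, the standard deviation of read midpoints around a dyad, was low in the chromosome 12 loci. At the longest locus it was 23.6 bp in ctrl replicate 1, 25.3 bp in ctrl replicate 2, 23.6 bp in N-myc kd replicate 1 and 25.8 bp in N-myc kd replicate 2. Both replicate 2 libraries, the deeper ones, were higher. Over the 6 chromosome 12 loci fuzziness ranged from 23.2 to 27.9 bp. It was 28.8 to 33.3 bp on chromosome 17 and 35.2 to 37.0 bp in MUC17, which thus lay at the level of other runs (median 35.0 to 36.1 bp). The median of member runs was below that of other runs by 10.2 bp (SD 1.06, n = 4, lower in 4 of 4 libraries). The two-sided exact permutation test gave p = 0.13, the smallest possible, and the libraries are repeat measurements of the same loci. Whether the choice of recurring runs by itself favours low fuzziness was not tested, so no conclusion is drawn from this p-value. When ctrl replicate 1 was left out and the rule was applied to the remaining 3 lists, the members' median was lower by 6.27 bp. Without the chromosome 12 members, which left 2 member runs per library, the difference was -3.099 bp, also lower in 4 of 4 libraries. The MUC17 run had 34.2, 36.7, 35.3 and 35.2 bp in ctrl replicates 1 and 2 and N-myc kd replicates 1 and 2. In the same order, other runs had medians of 35.0, 36.1, 35.0 and 36.1 bp. The chromosome 17 run had 29.1, 31.7, 29.9 and 27.8 bp, so this difference came mainly from 1 locus. Only 0, 2, 0 and 0 other runs in the 4 libraries had a fuzziness under the members' median.

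Read counts were moderately raised. Member runs had a median read count per nucleosome of 21.7, 29.8, 19.6 and 28.0 in ctrl replicates 1 and 2 and N-myc kd replicates 1 and 2, and other runs had 16.4, 22.3, 15.9 and 21.7. The difference was 5.72 reads (SD 1.62, n = 4, higher in 4 of 4), and 3.29 reads after thinning to equal depth. For the 5.72 reads the two-sided exact permutation test gave p = 0.13, the smallest possible. Here too the libraries are repeat measurements of the same loci. Whether the choice of recurring runs by itself favours high counts was not tested, so no conclusion is drawn from this p-value. Read counts above the members' median were found in 7.42 to 11.6% of other runs. Relative to the mean nucleosome of the library, the 8 loci had 1.12 to 1.65 times its read count. MUC17 was highest, at 1.60 to 1.65, and the chromosome 17 locus spanned 1.12 to 1.37, with both replicate 1 libraries below both replicate 2 libraries. Outside chromosome 12, a selection made after seeing the data that left 2 member runs per library, the difference from other runs was 6.01 reads (SD 3.34). The part of G+C content in these read counts was not tested.

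**Figure D5:**
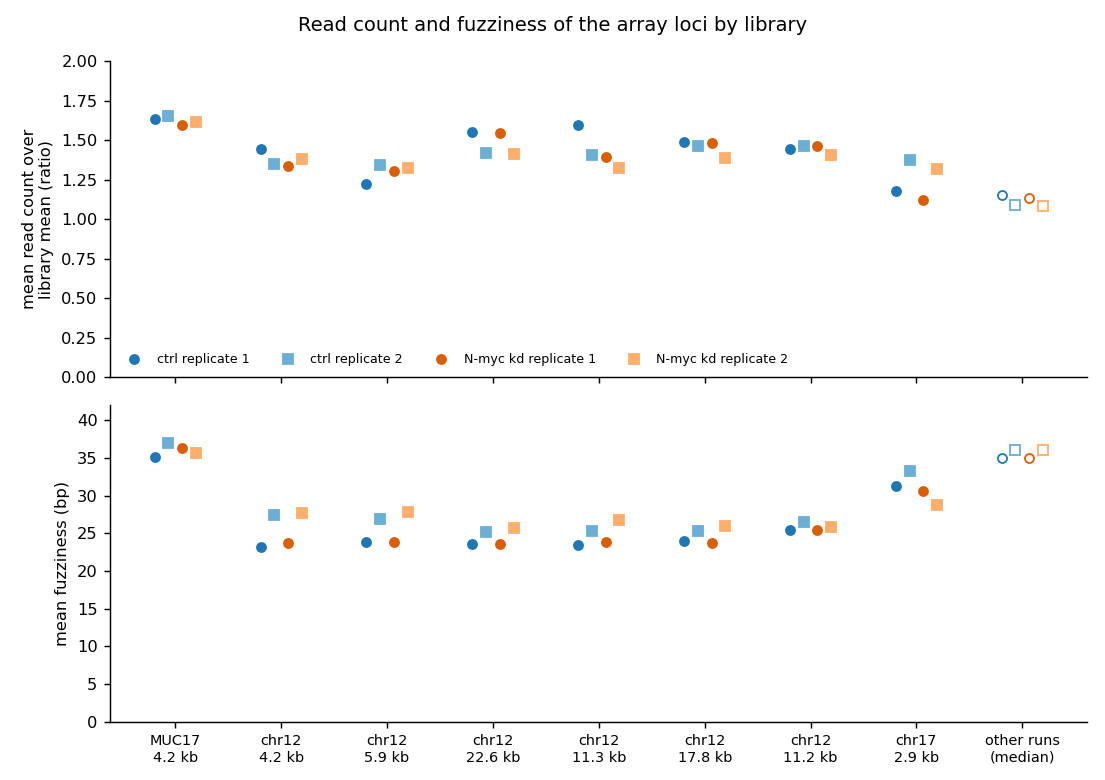
Mean read count per nucleosome over the library mean (upper panel, ratio) and mean fuzziness (lower panel, bp) of the 8 array loci in the 4 libraries (filled symbols, 1 per library); open symbols give the median of the other runs. The 6 chromosome 12 loci lie between 23.2 and 27.9 bp of fuzziness, below MUC17 and the other runs.

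Between the groups, the read count over the library mean, averaged over the 8 loci, was 1.444 in ctrl replicate 1, 1.434 in ctrl replicate 2, 1.406 in N-myc kd replicate 1 and 1.396 in N-myc kd replicate 2. The groups did not overlap. The difference was -0.0382, larger than the gaps between replicates (replicate 2 minus replicate 1, -0.00977 in ctrl and -0.00981 in N-myc kd), and it was -0.0382 within replicate 1 and within replicate 2 (two-sided exact permutation p = 0.333, the smallest that 2 against 2 libraries allow). The groups overlapped at equal depth (-0.0318, exact p = 0.667), with the median over loci (-0.0311, exact p = 0.667), with nucleosomes under 10 reads left out (-0.0164, exact p = 0.667) and with distances of 150 to 220 bp (-0.00773, exact p = 1). When ctrl replicate 2 was left out and the rule was applied to the remaining 3 lists, the 14 loci then found gave -0.641 with p = 1 by the exact test. Fuzziness averaged 26.3, 28.4, 26.4 and 28.1 bp in the same order, so the libraries split by replicate number and depth and not by group. Its difference was -0.0937 bp (exact p = 1), with 0.153 bp within replicate 1 and -0.340 bp within replicate 2, and its sign changed with the settings.

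Occupancy of single loci was tested with edgeR over all 12925 regions held by a run in any library, of which 0 (0%) had a Benjamini-Hochberg adjusted p under 0.05 and 471 (3.64%) an unadjusted p under 0.05. DESeq2 also called 0, with 228 at an unadjusted p under 0.05. None of the 8 array loci was called, and 0 had an unadjusted p under 0.05 with either tool. Their log2 differences, N-myc kd minus ctrl, ranged from -0.14 to 0.02 with a median of -0.04, and the median over all regions was 0.00. Their median was 0.05 without ctrl replicate 1 and 0.08 without N-myc kd replicate 2, and it was -0.15 without ctrl replicate 2 and -0.12 without N-myc kd replicate 1, so its sign rested on single libraries. Among all 1034 run regions with a G+C content of 57% or more the median log2 difference was -0.07, and the part of G+C content in the values of the array loci was not tested. The chromosome 17 locus had the smallest p among them. It had 133.9 and 130.8 normalised CPM (reads per region scaled to the library's total over run regions) in ctrl replicates 1 and 2 and 112.4 and 126.7 in N-myc kd replicates 1 and 2. Both N-myc kd libraries were below both ctrl libraries there, as at 15.9% of all regions, and the log2 difference was -0.14 (SE 0.15, edgeR adjusted p = 0.9999). The chr12:34530661-34541958 locus had 690.7 and 543.6 in ctrl and 610.2 and 516.0 in N-myc kd, with overlapping groups and a log2 difference of -0.13 (SE 0.17, edgeR adjusted p = 0.9999). MUC17 had 266.9 and 241.4 in ctrl and 263.8 and 216.9 in N-myc kd, also overlapping, with a log2 difference of -0.08 (SE 0.14, edgeR adjusted p = 0.9999). At the longest locus the values were 1331 and 1091 in ctrl and 1333 and 1087 in N-myc kd, where replicate 1 exceeded replicate 2 in both groups, and the log2 difference was 0.00 (SE 0.21, edgeR adjusted p = 0.9999). At this depth no difference in occupancy between ctrl and N-myc kd was detectable in the array loci.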

How the data were processed

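The authors trimmed reads with Trim Galore 0.4.4, mapped them to hg19 with Bowtie2 2.2.4 (versions, and CASAVA 1.9, from the submitters' processing notes), kept proper pairs of high mapping quality and removed duplicates. They called nucleosomes in each library with Genetrack. The deposited counts are whole-number reads per called nucleosome (6 or more), which the study's methods call normalized and which were taken here as unscaled, since their totals differ between libraries. The deposited fuzziness score is the SD, in bp, of read midpoints around the dyad. Nucleosomes in the lists are 147 bp long with dyads at least 147 bp apart, which limits the shortest spacing. A deeper list holds more nucleosomes.

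Runs, overlaps and sequence measures were computed with Python 3.11.15 and numpy 2.4.6 on GRCh37 with GENCODE genes. Run regions with a mean of at least 10 reads were tested with edgeR 4.0.16 (quasi-likelihood, TMM, Benjamini-Hochberg, 0.05), with DESeq2 1.42.0 as an alternative. Run finding and edgeR were tested on simulated data. Groups came from sample titles. The loci named were the 10 with the most nucleosomes (all 8) and the 3 with the smallest occupancy p. Members and lists were chosen with earlier results of these data known.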

Additional observations from a re-analysis of the deposited data

How the results depend on the processing

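Of 104 alternative values for 12 results, 84 were counted as unchanged, 15 moved and 5 tested differences changed sign. Except for spacing, a difference was counted as unchanged when it kept its sign, whatever its size, so the 84 do not measure stability. They include a read count difference of -0.641 against -0.0382 and a G+C difference of 1.39 against 15.3 percentage points. The number of loci (8) and of member runs per library (mean 13) rested on the limits of the rule. With runs of at least 8 nucleosomes there were 54 loci and 57.8 runs, and with distances of 150 to 220 bp 142 loci and 133.8 runs. With 1 library left out the rule asks for less, and it gave 14 to 19 loci and 18.3 to 24.3 runs, and occupancy calls stayed at 0. The overlap with displaced lists (mean 10.5 runs at 5 kb) was 0.25 at 100 kb and 0 at 1000 kb, since these exceed the arrays. The fuzziness difference changed sign with the median over loci (0.248 bp) and with nucleosomes under 10 reads left out (0.202 bp), and leaving out libraries gave -1.42 to 1.004 bp (0.855 bp without N-myc kd replicate 1, 1.004 bp without ctrl replicate 2). Leaving out libraries gave spacing differences of -0.327 to 0.614 bp (main 0.137 bp, -0.314 bp without ctrl replicate 2, -0.0387 bp without N-myc kd replicate 2), and this untested difference was -0.208 bp with distances of 150 to 220 bp. Read count differences with 1 library left out were -0.641 (without ctrl replicate 2) to -0.0319. At equal depth the dyad offset difference turned from -0.741 to 0.234 bp. The cause of these changes was not tested. Same-numbered libraries share a number and a similar depth, and no pairing is stated. Their deviations from the group mean correlated at r = 0.198. With 2 libraries a group this value is the same for both numbers by construction. With the replicate block the array loci called stayed at 0 and 5 of all regions were called. The mean same-numbered difference equals the group difference in this balanced design (read count -0.0382, fuzziness -0.0937 bp, spacing 0.137 bp), so it is no check. With same-numbered pairs only the dyad offset difference was -1.11 bp, but these pairs are alike in depth and the replicate pairs are not. With 2 libraries a group, no exact test could pass 0.05.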
